A study of Rattus norvegicus with 24 samples.

Results

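The highest doses of a D-serine experiment, 500 and 200 mg/kg, were compared in rat forebrain on 7 of the 24 arrays of the series. All animals were male F344 (Fisher) rats, 11 to 12 weeks old, and each received a single dose and was killed 96 h later. The 500 mg/kg group held 4 rats, of which 3 were used (replicates 1 to 3). The 200 mg/kg group held 4 rats, all used (replicates 1 to 4). Replicate 4 of 500 mg/kg was left out before the arrays were normalized, because its expression stood apart from that of every other array, and the main results are also given with it. The 4 vehicle rats (0 mg/kg D-serine) show where levels without D-serine lay. Like the lower dose groups, they also entered the normalization, the filter on dim probe sets and the estimate of spread. Every array came from a different animal, so the replicates are biological, and their numbers only name the arrays.

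D-serine is made from L-serine by serine racemase (Srr) and binds, together with glutamate, to the NMDA receptor, an ion channel built from Grin1 and a partner subunit such as Grin2a or Grin2b. It is taken up into cells by transporters that include Slc1a4 and Slc7a10 and is broken down by D-amino acid oxidase (Dao). The forebrain holds cortex, hippocampus, striatum and thalamus, whose neurons express different genes, and ventricles with choroid plexus, the secretory tissue that makes cerebrospinal fluid. The level of such markers in a small piece of tissue depends on which regions the piece held. In bulk tissue, fewer cells of a type and less RNA per cell cannot be told apart.

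No gene passed the test between 500 and 200 mg/kg. Levels are log2 of the normalized intensity plus 16, differences are 500 minus 200 mg/kg on that scale, and a passing difference needed an adjusted p under 0.05. In limma's moderated test, fitted on 23 arrays with Benjamini-Hochberg adjustment over all 18626 probe sets, 0 probe sets passed (0.0%) and the smallest adjusted p was 0.9999. Before adjustment 509 probe sets (2.73%) had a p under 0.05, of which 254 were higher at 500 mg/kg (1.36%) and 255 lower (1.37%). At the gene level, where each of 10207 genes is represented by its brightest probe set, 246 genes had such a p (2.41%), 117 of them higher (1.15%) and 129 lower (1.26%). The groups did not overlap for 472 genes (4.62%): all 3 arrays of 500 mg/kg lay above all 4 of 200 mg/kg for 250 (2.45%), and below them for 222 (2.17%). Of all genes, 49.6% had a difference above 0 and 50.4% one below 0.

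The precision of the comparison was enough to bound most genes closely. The median gene difference was -0.0010 and the median size of a difference was 0.074, and the 5th and 95th percentiles of the differences were -0.22 and 0.22. The median standard error was 0.13. For 8141 genes (79.8%) the 95% interval of the difference stayed within 0.5 of 0 on either side, a change of 1.41-fold, and for 10053 genes (98.5%) it stayed within 1. The estimate itself was past 0.5 for 65 genes, with 37 higher and 28 lower at 500 mg/kg. The correlation between arrays of the same dose averaged 0.974 over 9 pairs (0.968 to 0.982), and that between arrays of different dose 0.975 over 12 pairs (0.972 to 0.981), so arrays of the same dose were no more alike than arrays of different dose.

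The genes with the largest estimates included markers of brain regions. Of the 65 genes past 0.5, 15 belonged to the lists of region and cell type markers, which held 152 genes, or 1.49% of all genes tested. The lists were chosen with earlier results of these data known, and members of a list vary together. The 15 genes are therefore not separate observations, and their share was not tested. They were 8 striatal genes and 1 hypothalamic gene that read higher at 500 mg/kg, and 4 choroid plexus genes, 1 cortical gene and 1 hippocampal gene that read lower. These estimates had wide intervals, of which those of Pdyn, Ccn2 and Grik4 did not contain 0. Ttr, Sostdc1, F5 and Tac1 were among the 20 genes that varied most between animals of the same dose. The median within-group standard deviation was 0.14 over all genes, and 5 genes had one over 1. Of these, Ttr and Sostdc1 mark choroid plexus. Cdhr1 marks the olfactory bulb and Hbb marks blood, and their differences (0.495 and 0.295) were not past 0.5. The 5th was Shisa8. Hbb and Shisa8 were chosen after their values were seen.

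**Figure D1:**
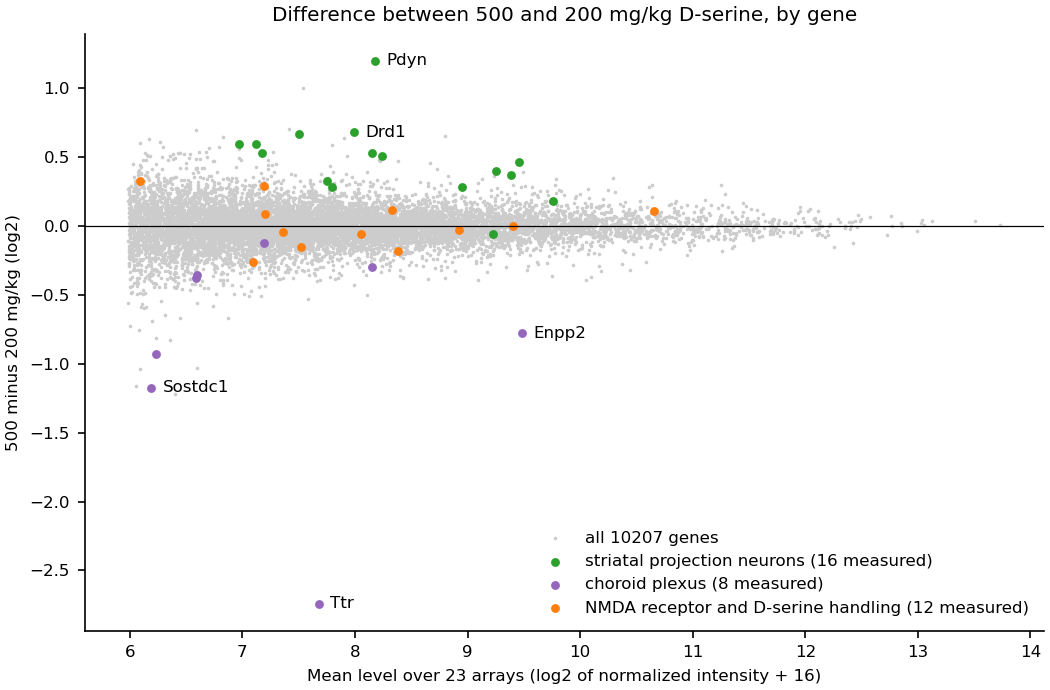
Difference between 500 mg/kg (3 arrays) and 200 mg/kg (4 arrays) for each of 10207 genes (log2, vertical axis) against the gene's mean level over 23 arrays (log2 of intensity plus 16, horizontal axis). Most genes lie near 0, Ttr and Sostdc1 of the choroid plexus list lie lowest among the coloured genes, striatal genes lie mostly above 0 and the genes of the NMDA receptor and D-serine handling list lie within -0.26 and 0.33.

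Choroid plexus genes differed most in size, and their mean level was high in a pair of 200 mg/kg animals. All 8 measured members of the 14 in the list read lower at 500 mg/kg, 0 passed, and their median difference was -0.58, beside a median of -0.0010 over all genes. Ttr, which encodes the thyroid hormone carrier transthyretin and is the most abundant choroid plexus transcript, read 12.63, 6.51, 6.62 and 12.85 on replicates 1 to 4 of 200 mg/kg. On replicates 1 to 3 of 500 mg/kg it read 6.86, 7.10 and 6.78. Replicates 1 and 4 of 200 mg/kg thus stood far above the other 5 arrays, which lay close together. The difference of Ttr was -2.74 ± 1.61 (SE, n = 3 and 4), with a 95% interval from -6.07 to 0.59. Vehicle animals spanned the same range, from 6.43 to 13.09. On 500 mg/kg replicate 4, left out for its different makeup, Ttr read 12.67 and the mean of the list 8.44. Low choroid plexus levels at 500 mg/kg thus hold for the 3 arrays used only.

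Several other choroid plexus genes split the animals in the same way. Sostdc1, a secreted antagonist of BMP and Wnt signals, read 7.78, 5.63, 5.72 and 8.35 at 200 mg/kg and 5.69, 5.61 and 5.78 at 500 mg/kg (difference -1.17 ± 0.75). Enpp2, the enzyme autotaxin that makes lysophosphatidic acid, read 10.49, 9.71, 8.79 and 11.14 at 200 mg/kg and 9.46, 9.23 and 9.08 at 500 mg/kg (-0.78 ± 0.54). Coagulation factor F5 read 7.07, 5.76, 6.23 and 8.27, then 5.77, 6.17 and 5.77. For each of these genes the groups overlapped, with 200 mg/kg replicates 1 and 4 on top. Aqp1, a water channel, and Igfbp2, a binding protein of insulin-like growth factors, did not keep that order. Aqp1 was highest on 500 mg/kg replicate 1 (7.33), and Igfbp2 read 8.42 on replicate 3 of both doses against 8.23 on 200 mg/kg replicate 1. Prlr, the prolactin receptor, had the smallest p of the list (-0.38 ± 0.16, unadjusted p = 0.0275, adjusted p = 0.9999 in limma), and its groups overlapped too. Averaged over the 8 genes, the list read 8.37, 6.79, 6.92 and 8.94 at 200 mg/kg (SD 1.07) and 6.96, 6.86 and 6.90 at 500 mg/kg (SD 0.05), while the 4 vehicle animals read 6.90, 9.20, 7.18 and 7.17. With 200 mg/kg replicates 1 and 4 both left out, a setting chosen after the data were seen, the list's median difference was 0.01, that of Ttr 0.35 and that of Sostdc1 0.02. These animals were picked for their high choroid plexus levels, so leaving them out was bound to shrink the difference and supports no conclusion. Leaving out replicate 4 alone made the list median -0.34. Of the ependyma list, the ciliated cells that line the ventricles, 4 of 8 genes were measured. Dynlrb2, a dynein light chain, had the same order of animals (7.45, 6.63, 6.49 and 7.50 at 200 mg/kg and 6.69, 6.54 and 6.48 at 500 mg/kg, difference -0.45 ± 0.38), and Tmem212, Rarres2 and Tekt1 differed by 0.18, 0.02 and 0.01.

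Striatal genes read higher at 500 mg/kg, without passing. Of 16 measured members of the 18 in the list of striatal projection neurons, 15 read higher and 1, the transcription factor Foxp1 (-0.06 ± 0.20), read lower, though other probe sets of Foxp1 gave 0.02 to 0.34. The list's median difference was 0.49, or 0.22 with the Gapdh RNA quality ratio as a covariate, and 0 genes passed. The gene with the smallest p was Pdyn, which encodes the opioid peptide precursor prodynorphin of the direct pathway neurons. It read 8.08, 7.85, 7.01 and 7.96 at 200 mg/kg and 8.35, 9.43 and 9.005 at 500 mg/kg. Of the 16 measured members it was the only one whose groups did not overlap, beside 4.62% of all genes. Its difference was 1.20 ± 0.52, with a 95% interval from 0.12 to 2.28 (unadjusted p = 0.0313, adjusted p = 0.9999 in limma). The vehicle animals ran from 7.14 to 9.11, so that replicate 2 of 500 mg/kg lay above them and replicate 3 of 200 mg/kg below them.

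The dopamine receptor and signalling genes of the same neurons showed which animals carried the difference. Drd1, the dopamine receptor of the direct pathway, read 8.65, 7.86, 7.04 and 8.04 at 200 mg/kg and 7.74, 9.23 and 8.76 at 500 mg/kg (0.68 ± 0.62). Drd2 and Adora2a, the dopamine and adenosine receptors of the indirect pathway, differed by 0.53 ± 0.62 and 0.60 ± 0.74. Replicate 3 of 200 mg/kg was the lowest and replicates 2 and 3 of 500 mg/kg were high, while replicate 1 of 500 mg/kg lay among the 200 mg/kg animals. Replicate 1 of 200 mg/kg was high too, with Drd2 at 8.15 and Adora2a at 8.09, above every 500 mg/kg array used. Rarb, a retinoic acid receptor, read 7.78, 7.39, 6.84 and 7.35 against 7.47, 8.38 and 8.18 (difference 0.67 ± 0.41). The G protein subunit Gng7 read 8.69, 7.79, 7.44 and 8.18 against 8.09, 8.95 and 8.56 (difference 0.51 ± 0.36). Both were lowest on 200 mg/kg replicate 3 and highest on 500 mg/kg replicate 2. Averaged over its 16 genes, the list read 8.91, 8.22, 7.59 and 8.32 at 200 mg/kg, 8.18, 9.13 and 8.89 at 500 mg/kg. The vehicle animals read 8.20, 8.15, 8.19 and 9.45. The groups overlapped, and the highest animal of the 3 groups was a vehicle animal. Leaving out 200 mg/kg replicate 3 brought the median difference to 0.19, and leaving out 500 mg/kg replicate 2 to 0.26. It was 0.73 when replicate 1 of either dose was left out.

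**Figure D2:**
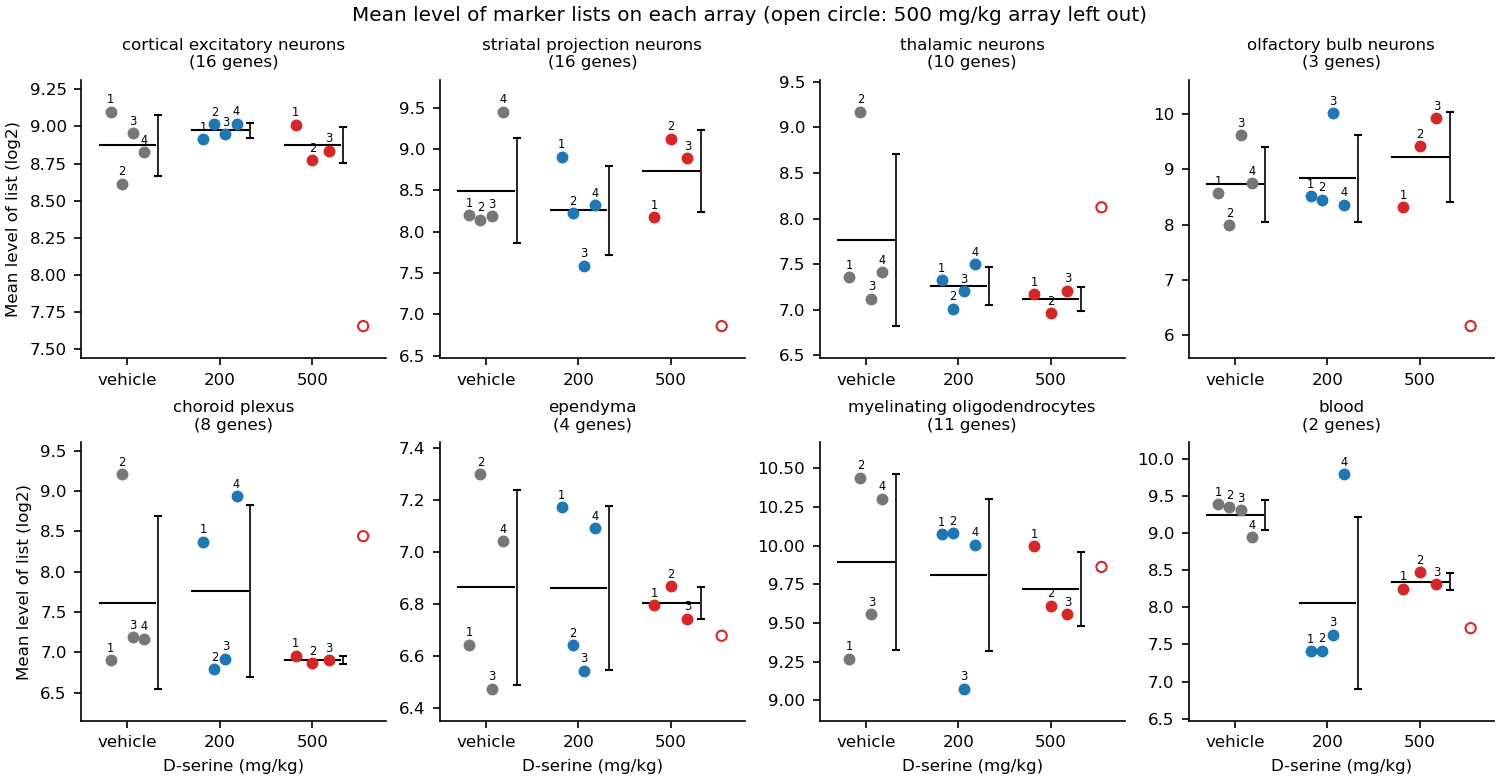
Mean level of 8 marker lists (log2, vertical axis) on each array of vehicle, 200 mg/kg and 500 mg/kg (horizontal axis), with replicate numbers beside the points. Horizontal lines are group means, vertical bars are SD of the arrays used, and the open circle is 500 mg/kg replicate 4, which is in no mean. The choroid plexus list is high on 200 mg/kg replicates 1 and 4 (8.37 and 8.94) and between 6.86 and 6.96 on the 3 arrays of 500 mg/kg, and the striatal list overlaps between all 3 groups.

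Genes of other forebrain regions gave smaller estimates. Of 16 measured cortical genes of 17, 12 read lower at 500 mg/kg and 4 higher (median difference -0.11). Slc17a7, the vesicular glutamate transporter of cortical neurons, and Camk2a, the abundant kinase of their synapses, differed by -0.14 ± 0.13 and -0.06 ± 0.11. The cortical gene with the smallest p was Ccn2, a secreted matrix protein found in deep layer neurons, at 8.33, 8.41, 8.67 and 8.30 in 200 mg/kg animals and 8.19, 7.73 and 7.84 in 500 mg/kg animals. Its groups did not overlap (-0.50 ± 0.19, unadjusted p = 0.0168, adjusted p = 0.9999 in limma). The transcription factors Neurod2 and Etv1 and the secreted pentraxin Nptx1 differed by -0.27, -0.12 and -0.20. The cortical list as a whole read 8.91, 9.02, 8.95 and 9.02 at 200 mg/kg and 9.01, 8.77 and 8.84 at 500 mg/kg, a narrower range than that of the striatal or choroid plexus list. Leaving out 500 mg/kg replicate 2 made its median difference -0.063 and that of the thalamic list -0.062.

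Of 12 hippocampal genes 6 were measured, 5 higher and 1 lower (median 0.12). The lower gene was Grik4, a kainate receptor subunit, at 7.03, 7.60, 6.91 and 7.34 in 200 mg/kg animals and 6.67, 6.73 and 6.27 in 500 mg/kg animals. Its groups did not overlap, and it had the smallest p of all marker genes (-0.67 ± 0.20, unadjusted p = 0.00279, adjusted p = 0.9999 in limma). The hippocampal genes C1ql3, Wfs1 and Zbtb20 differed by 0.21 ± 0.26, 0.22 ± 0.21 and 0.14 ± 0.19, so that Grik4 was alone in its direction on the list. Of 15 thalamic genes 10 were measured, 9 lower and 1 higher (median -0.18). The nuclear receptor Rora gave -0.36 ± 0.27, the kinase Prkcd -0.23 ± 0.38, the transcription factor Lef1 -0.20 ± 0.25 and the phospholipase Plcb4 -0.19 ± 0.31. The thalamic list lay between 6.96 and 7.50 on all 7 arrays, while 1 vehicle animal, replicate 2, read 9.17 and was also the vehicle animal with the highest choroid plexus level.

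Hypothalamic, olfactory, cerebellar and brainstem genes were mostly dim in this tissue. Of 16 hypothalamic genes 4 were measured, and the peptide genes Oxt, Avp, Hcrt and Pomc fell below the filter on dim probe sets, at mean levels of 5.01, 5.23, 5.59 and 4.36 against a filter level of 5.99. Cartpt, a peptide gene that striatal neurons share, read 7.47, 6.52, 7.79 and 7.39 at 200 mg/kg and 7.34, 8.88 and 8.66 at 500 mg/kg (0.999 ± 0.57). It was high on 500 mg/kg replicates 2 and 3 alone, whereas the striatal list was also high on 200 mg/kg replicate 1. Hap1, Gal and Pmch differed by 0.16, 0.10 and 0.17. Of 7 genes of basal forebrain cholinergic neurons 0 were measured.

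The olfactory bulb list, with 3 of 8 genes measured, moved between animals of the same dose. Cdhr1, a cadherin of mitral cells, read 6.41, 6.27, 9.14 and 5.77 at 200 mg/kg and 5.94, 7.58 and 8.67 at 500 mg/kg (0.50 ± 0.91). Replicate 3 of 200 mg/kg, the lowest in striatal genes, was the highest here. Synpr, a synaptic vesicle protein, and the transcription factor Meis2 differed by 0.27 ± 0.27 and 0.39 ± 0.43, and within each dose all 3 genes were highest on replicate 3. The list's median difference was 0.39. Leaving out 500 mg/kg replicate 3 made it 0.10, leaving out replicate 1 of that dose made it 0.76, and leaving out 200 mg/kg replicate 3 made it 0.65. Of 12 cerebellar genes 6 were measured, 2 higher and 4 lower (median -0.05), and Gabra6, the receptor subunit of cerebellar granule cells, lay below the filter (between 4.57 and 5.80 on the 7 arrays). Car8, a protein of Purkinje cells, read 6.21, 6.03, 6.22 and 6.31 at 200 mg/kg and 6.43, 6.68 and 6.50 at 500 mg/kg, a difference of 0.35 ± 0.14 with no overlap, close to the filter level of 5.99. Pcp2, Cbln1 and Zic2 differed by 0.19, -0.46 and -0.44. Of 10 midbrain and hindbrain genes only Slc6a3, the dopamine transporter, was measured (-0.38 ± 0.21).

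The array left out of the comparison had a different makeup. On 500 mg/kg replicate 4 the cerebellar list read 10.74 and the cortical, striatal and olfactory lists read 7.66, 6.86 and 6.17, so that the label of forebrain was not borne out by its markers, whereas the 7 arrays compared carried high cortical and striatal genes and dim cerebellar genes. Its median correlation with the other arrays was 0.857, against 0.969 to 0.971 for the 7. With it in the 500 mg/kg group, 0 probe sets passed and 969 had an unadjusted p under 0.05. The striatal median was then 0.06, the cortical -0.33, the olfactory -0.33 and the cerebellar 1.08. Of single genes, Klf16 then differed by 0.055 in place of 0.48, Arc by 0.019 in place of 0.47, Pdyn by 0.50 in place of 1.20, Ttr by -1.30 in place of -2.74 and Grin2b by -0.50 in place of -0.05. Grik4 and Ccn2 kept differences of -0.64 and -0.64.

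**Figure D3:**
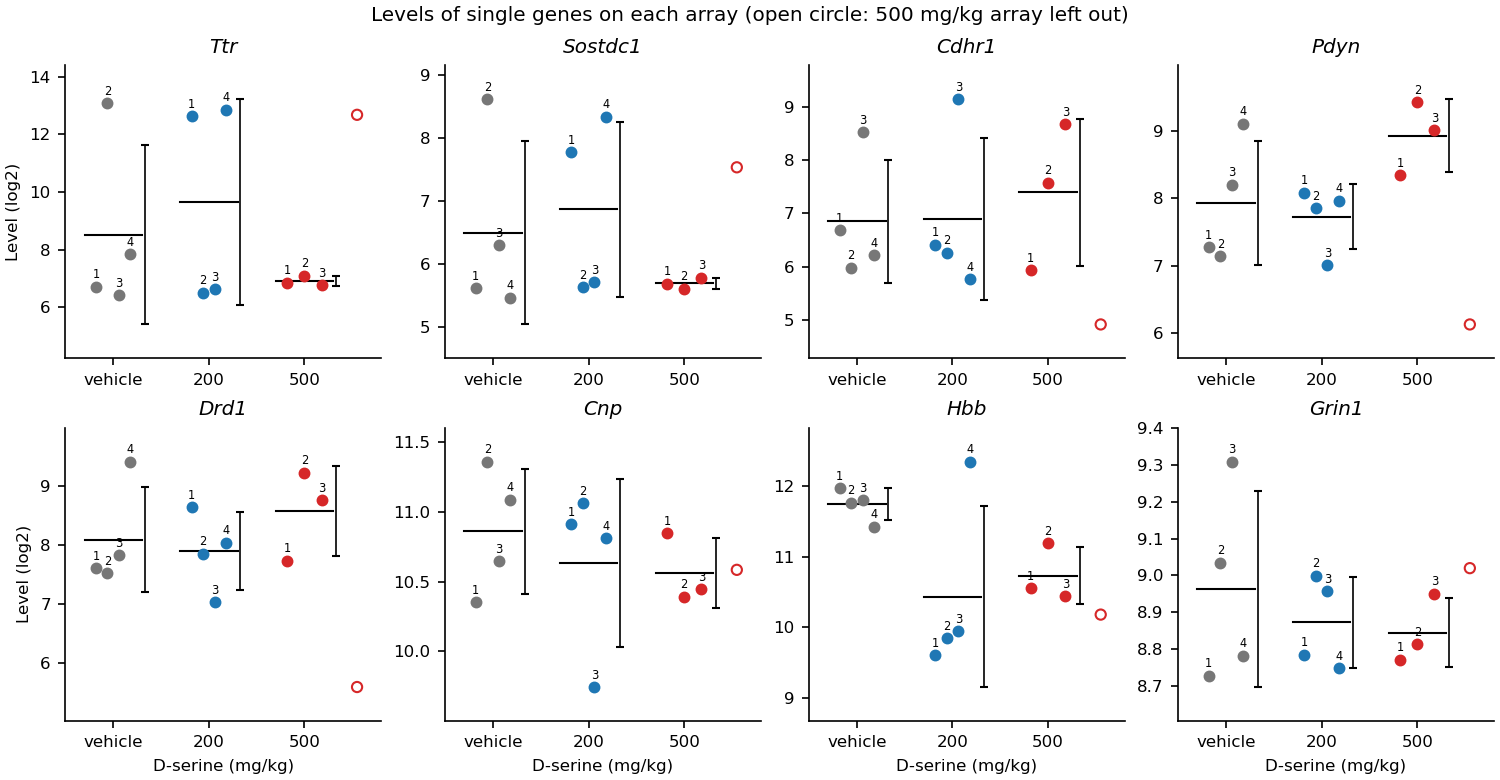
Level (log2, vertical axis) of 8 genes on each array of vehicle, 200 mg/kg and 500 mg/kg (horizontal axis), with group means as lines, SD as bars and 500 mg/kg replicate 4 as an open circle that is in no mean. Ttr is above 12 on 200 mg/kg replicates 1 and 4 and near 7 on the 3 arrays used of 500 mg/kg, Pdyn shows no overlap between both doses, and Grin1 differs by -0.03.

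Among the other cell types, reactive astrocyte genes read lower at 500 mg/kg on average. All 4 measured genes of the 8 in the list did so (median -0.27), and 0 passed. The list mean read 8.52, 8.37, 8.39 and 8.56 at 200 mg/kg and 8.27, 8.20 and 8.24 at 500 mg/kg, with no overlap. Both doses lay below the vehicle animals at 8.64 to 8.89. There were 30 lists, and the only other list mean without overlap was that of the midbrain and hindbrain list, with 1 gene measured. How many list means would separate by chance was not tested. Gfap, the filament protein of astrocytes, read 9.87, 9.83, 9.53 and 10.32, then 9.72, 9.35 and 9.72 (-0.29 ± 0.22). Its groups overlapped, and all but 1 of the 7 arrays lay below the vehicle range of 10.27 to 11.08. Of this list, S100a10, chosen after its values were seen, was the gene whose groups did not overlap (-0.29 ± 0.14). Unlike the list mean, it read higher at 200 mg/kg (8.67 to 9.03) than in vehicle animals (8.26 to 8.62), and 500 mg/kg (8.40 to 8.62) did not lie below vehicle. Genes of resting astrocytes did not share the direction, with 7 of 10 higher and a median of 0.09, and microglial genes had a median of 0.04 (6 of 8 higher).

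Myelin genes had 9 of 11 members lower (median -0.09), yet the lowest animal was 200 mg/kg replicate 3, with a list mean of 9.07 beside 10.07, 10.08 and 10.01 in its group and 9.996, 9.61 and 9.56 at 500 mg/kg. Mbp, the main myelin basic protein, differed by 0.02 ± 0.09, with 13.06 to 13.09 on the 3 arrays of 500 mg/kg. Oligodendrocyte precursors, interneurons and endothelium had medians of 0.05, 0.03 and -0.07. Smooth muscle and meningeal lists had medians of -0.07 and -0.13. Blood was represented by the globin gene Hbb and by Alas2, the heme synthesis enzyme of red cells, and the mean of both read 7.41, 7.42, 7.63 and 9.79 at 200 mg/kg and 8.25, 8.47 and 8.31 at 500 mg/kg. Replicate 4 of 200 mg/kg was high and the other 6 arrays lay below the vehicle animals (8.95 to 9.39). The part that these regional, myelin and blood levels have in the differences of other genes was not tested.

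Genes of the NMDA receptor and of D-serine handling gave estimates between -0.26 and 0.33. Of 18 genes 12 were measured, 5 higher and 7 lower, with a median of -0.01, and 0 passed. Grin1, the obligatory receptor subunit, read 8.78, 8.999, 8.96 and 8.75 at 200 mg/kg and 8.77, 8.81 and 8.95 at 500 mg/kg. Its difference was -0.03 ± 0.12, with a 95% interval from -0.27 to 0.22, and the groups overlapped fully. Grin2a and Grin2b, the main forebrain partner subunits, differed by -0.00 ± 0.15 and -0.05 ± 0.13. Another probe set of Grin2a gave 0.27 with all 500 mg/kg arrays above those of 200 mg/kg, so that probe sets of this gene disagreed. Grin3a, a subunit that lowers calcium entry, gave 0.33 ± 0.20 without overlap, and was chosen after its values were seen.

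The transporters and enzymes around D-serine gave estimates of either sign, none of which passed. Slc1a4, a neutral amino acid exchanger that carries serine, read 7.03, 6.88, 7.07 and 7.37 at 200 mg/kg and 7.51, 7.43 and 7.21 at 500 mg/kg (0.29 ± 0.22), with overlapping groups. Slc7a10, the exchanger of small neutral amino acids and D-serine, gave 0.09 ± 0.15. Psph, the last enzyme of L-serine synthesis, chosen after its values were seen, read 7.41, 7.20, 7.21 and 7.10 against 6.87, 7.09 and 6.96 (-0.26 ± 0.11, unadjusted p = 0.0267, adjusted p = 0.9999 in limma), without overlap. Slc6a9, the glycine transporter of glia, gave -0.18 ± 0.23, while another of its probe sets gave -0.51 (unadjusted p = 0.0514, adjusted p not under 0.05 in limma). Phgdh and Psat1, the enzymes before Psph in L-serine synthesis, gave -0.06 and 0.11, so the 3 enzymes did not share a direction. Dao lay near the floor of the scale (mean level 4.11, where 4 is the value of an intensity of 0), and no probe set carried the symbol Srr.

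Immediate-early genes, which neurons transcribe after activity, read mostly higher at 500 mg/kg. Of 16 measured genes of 20, 12 read higher and 4 lower, with a median of 0.09 and 0 passing. Arc, which encodes a synaptic protein that regulates AMPA receptors, read 8.27, 8.04, 8.12 and 8.19 at 200 mg/kg and 8.62, 8.52 and 8.74 at 500 mg/kg. Its groups did not overlap, and its difference was 0.47 ± 0.22 with a 95% interval from 0.02 to 0.92 (unadjusted p = 0.0397, adjusted p = 0.9999 in limma). Both groups lay within or close to the vehicle range of 8.12 to 9.04. Fos, a component of the AP-1 transcription factor, read 7.43, 7.03, 7.79 and 6.68, then 7.11, 7.36 and 8.33 (0.37 ± 0.32), and its highest array was 500 mg/kg replicate 3. Leaving out that array made the difference of Fos 0.0034, leaving out 500 mg/kg replicate 1 made it 0.61, and leaving out 200 mg/kg replicate 4 made it 0.18. Bdnf, the neurotrophin induced by activity, had the opposite sign (-0.33 ± 0.27), as had Jun, Egr3 and Homer1, at -0.12, -0.11 and -0.07. Probe sets of Jun and Homer1 disagreed in sign. Others of Jun gave 0.01 and -0.33, the latter with all 500 mg/kg arrays below those of 200 mg/kg. Others of Homer1 ran from -0.22 to 0.28.

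**Figure D4:**
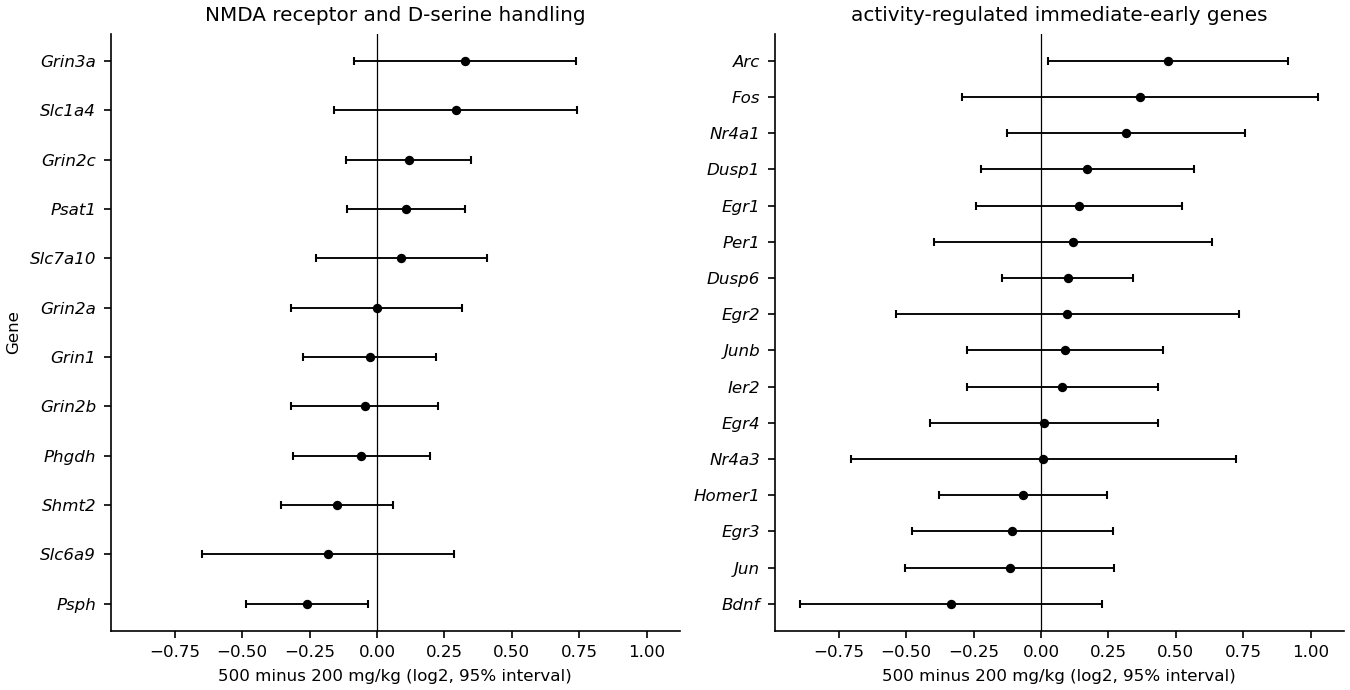
Difference between 500 and 200 mg/kg (log2, horizontal axis) with its 95% interval for the 12 measured genes of the NMDA receptor and D-serine handling (left) and the 16 measured immediate-early genes (right). Points are limma estimates from 3 and 4 arrays, and most intervals contain 0, with Psph below it and Arc above it.

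Other process lists stayed near the median of all genes. Receptors of the AMPA, kainate and metabotropic types had 9 of 13 members lower (median -0.02), with Grik4 at the lower end and the AMPA receptor subunit Gria4, chosen after its values were seen, at the upper (0.64 ± 0.31). A further probe set of Gria4 gave -0.12, so that its probe sets disagreed in sign. Synaptic vesicle genes had a median of -0.05 over 15 genes. Oxidative phosphorylation (20 genes), glycolysis (14 genes), glucocorticoid-responsive genes (11 genes), heat shock genes (9 genes) and interferon-induced genes (8 genes) had medians of 0.01, 0.01, 0.05, 0.02 and 0.03, and 0 of their members passed. The members of the heat shock list ran from -0.070 to 0.058, and those of oxidative phosphorylation from -0.11 to 0.14.

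The 12 genes with the smallest p in each direction are given as a description, since none passed and the rule picked them for their p. Klf16, a zinc finger transcription factor, had the smallest p of all genes (0.000403 unadjusted, adjusted p = 0.9999 in limma). It read 7.87, 8.25, 7.90 and 8.09 at 200 mg/kg and 8.44, 8.56 and 8.53 at 500 mg/kg, a difference of 0.48 ± 0.12. All 3 arrays of 500 mg/kg lay above both the 200 mg/kg and the vehicle animals. Npffr2, a receptor for neuropeptide FF, followed at 0.52 ± 0.14, with 200 mg/kg below vehicle and 500 mg/kg within its range. Ift52 and Ift172, subunits of the intraflagellar transport complex that builds cilia, gave 0.40 ± 0.12 and 0.34 ± 0.10. The remaining genes of this direction were Col22a1, Fbxo34, Cxhxorf38, Klhl32, Cygb, Ubtd2, Fam193a and Nppa, from 0.27 for Fam193a to 0.65 for Fbxo34. For Fam193a and Ubtd2 other probe sets of the gene disagreed in sign.

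Among the lower genes, Slc23a2, the vitamin C transporter of neurons, read 8.91, 8.85, 8.84 and 8.72 at 200 mg/kg and 8.54, 8.40 and 8.41 at 500 mg/kg (-0.38 ± 0.11). Its 200 mg/kg animals lay above those of vehicle, while 500 mg/kg overlapped vehicle. Plcb3, a phospholipase C, read 6.77, 6.62, 6.12 and 6.75, then 5.04, 4.84 and 6.32 (-1.16 ± 0.34), and its groups overlapped through 500 mg/kg replicate 3. It was dim, with a mean level of 6.05 beside the filter level of 5.99, and vehicle animals ran from 5.06 to 6.53. Irf1, a transcription factor of the interferon response, read 6.65, 6.87, 6.90 and 6.84, then 6.26, 6.58 and 6.42 (-0.39 ± 0.12), with all 500 mg/kg arrays below the vehicle animals. The others were Grik4, Scaf11, Ppm1d, Mrps11, Mynn, Supt16h, Eps8, S1pr2 and Lst1, from -0.25 for Supt16h to -0.81 for Lst1. Lst1 and S1pr2 were dim too, at mean levels of 6.23 and 6.31. At 500 mg/kg Lst1 read 6.14, 5.48 and 4.68, and S1pr2 read 4.97, 6.35 and 6.34. Other probe sets of Eps8 gave 0.03 and -0.04, and those of Scaf11 ran from -0.21 to 0.01.

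Set against vehicle, the 24 genes had no common pattern. In each direction 10 of 12 had groups that did not overlap, which the choice by p favours. Of the 12 higher genes, 3 had all 500 mg/kg arrays above vehicle, 4 had all 200 mg/kg arrays below vehicle, and in 5 both doses overlapped vehicle. Of the 12 lower genes, 3 had 500 mg/kg below vehicle, 2 had 200 mg/kg above vehicle and in 7 both overlapped it.

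Signs of RNA quality did not separate the doses detectably. For beta-actin the 3' probe set of the array's controls over its 5' one, a ratio that goes up as RNA shortens, gave on the log2 scale 2.46 ± 0.15 (SD, n = 4) at 200 mg/kg and 2.44 ± 0.22 (SD, n = 3) at 500 mg/kg, with an exact two-sided permutation p of 0.914. For Gapdh it was 0.60 ± 0.21 and 0.68 ± 0.03 (exact permutation p = 0.486, adjusted over both ratios 0.914). With 35 possible splits the smallest p of this test is 0.0286. Within 200 mg/kg the Gapdh ratio was 0.80 and 0.77 on replicates 1 and 2 and 0.42 and 0.41 on replicates 3 and 4, below all 500 mg/kg arrays. Median intensities of the 7 arrays as deposited ran from 56.7 to 68.4.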

How the data were processed

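Total RNA of forebrain pieces was hybridised to Affymetrix rat expression arrays, 1 per animal. The values deposited by the authors are intensity, 1 linear signal per probe set, made, per the submitters' processing notes, with GCOS (settings, scaling, version and scan batches not given in the sources used here). From these, 23 arrays (500 mg/kg replicate 4 left out) were quantile normalized, because array medians spanned 0.73 on the log2 scale, and log2(intensity + 16) was taken, which understates the change of dim genes. The 57 control probe sets and the 40% dimmest of the others were left out, which left 18626 of 31099.

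Group means of all 6 dose groups were fitted in limma 3.58.1 (R 4.3.3), with the prior variance allowed to follow intensity and p adjusted by Benjamini-Hochberg, so the other groups contributed to the estimate of spread. The fit was tested on simulated data. Errors of differences are standard errors, those of array measures SD. The number of arrays limits the precision.

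A single gene symbol was listed for 20832 probe sets, more than 1 for 436 and no symbol for 9831. Names were updated through Entrez ID (20764) or accession (2), and kept for 66, against RefSeq's GRCr8 gene table, used for names only. A gene is its brightest probe set.

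The arrays compared and the gene lists were chosen with earlier results of these data known. Genes named are those that passed, the 12 with the smallest p in each direction, in each region list the 4 members with the smallest p, and 14 genes fixed by name, whatever their values (D-serine metabolism, receptor subunits, activity, cell types). Others are named as list members, as the most variable genes or as dim markers, or are said to have been chosen after their values were seen. No 2 arrays held identical values.

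Alternatives tried were other filters, pseudocounts, centring, the deposited values, moderation and weights, 1 probe set per gene, the 7 arrays alone, a covariate for the Gapdh ratio, each replicate left out and 500 mg/kg replicate 4 included. Leaving out 200 mg/kg replicates 1 and 4 together was chosen after the data were seen, for their high choroid plexus levels.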

Additional observations from a re-analysis of the deposited data

Results flagged for a closer look

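Within the 200 mg/kg group, 6 of 100 tests of single genes and list means found an animal far from the other 3 by Dixon's criterion, which chance meets in about 1 of 20 groups. The olfactory bulb list read 10.01 on replicate 3 against 8.36 to 8.52 on the others. On the same animal the myelin list read 9.07 against 10.01 to 10.08, and the NMDA receptor and D-serine list read 7.96 against 8.05 to 8.06. The blood list read 9.79 on replicate 4 against 7.41 to 7.63. Of single genes, Neurod2, a cortical transcription factor, read 7.87 on replicate 2 against 7.41 to 7.46, and Plcb4 read 8.38 on replicate 4 against 8.20 to 8.23.

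On 500 mg/kg replicate 4, which enters no comparison, cerebellar genes read above all 23 other arrays. Pcp2, a Purkinje cell gene, read 12.34 against 5.91 to 6.86, and Car8, of the same cells, 11.81 against 6.03 to 6.74. Cbln1, a synapse organiser secreted by granule cells, read 11.47 against 4.17 to 7.56. The granule cell factor Neurod1 read 11.86 against 6.62 to 8.23, and the glutamate receptor Grm4 9.31 against 6.26 to 7.47.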

How the results depend on the processing

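Under each of the 21 alternatives 0 probe sets passed, and the lowest adjusted p was 0.161, without 500 mg/kg replicate 3. Probe sets with an unadjusted p under 0.05 numbered 509, against 1101 with array weights, 1145 of 31042 without a filter, 969 with 500 mg/kg replicate 4, 279 of 12417 with a filter of 60%, 250 in the values as deposited, 254 of 10207 with 1 probe set per gene, and 430 to 689 with each replicate left out. The cause of these shifts was not tested, apart from the number of probe sets tested. Of the region lists' medians, the hypothalamic was 0.58 with a filter of 60%, which leaves fewer genes. As deposited the cortical was -0.20 and the hippocampal 0.033, where the median of all probe sets was -0.08. With 500 mg/kg replicate 4 the cortical was -0.33, the hippocampal -0.19, the thalamic 0.073 and the cerebellar 1.08. No paired analysis was possible because the labels number the animals and pair none across doses.

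The cerebellar and ependyma medians ran from -0.11 to 0.066 and from -0.071 to 0.086 with each replicate left out. Among the genes picked by the naming rule and the RNA ratios, signs turned only as follows. With the Gapdh covariate Rarres2 gave -0.032, Grin1 0.0059 and Grin2a 0.0071. With array weights Mbp gave -0.0055. Median centring gave Rarres2 -0.00058 and Mbp -0.044, and the deposited values Rarres2 -0.062, Tekt1 -0.038 and Mbp -0.11. With 500 mg/kg replicate 4, Ppm1d gave 0.067, Nptx1 0.00078, Etv1 0.42, Wfs1 -0.16, C1ql3 -0.42, Drd1 -0.066, Rora 0.12, Plcb4 0.31, Synpr -0.67, Meis2 -0.33, Cdhr1 -0.12, Cbln1 1.05, Zic2 0.011, Rarres2 -0.18, Grin1 0.017 and Fos -0.067, and the beta-actin ratio 0.053. Without 200 mg/kg replicates 1 and 4, C1ql3 gave -0.093, Prkcd 0.017, Cdhr1 -0.31, Ttr 0.35, Sostdc1 0.019, Enpp2 0.0048, Dynlrb2 0.010 and Grin2a 0.012. Over the settings that leave out each replicate, Cbln1 ran from -0.80 to 0.17, Cdhr1 from -0.14 to 1.24, Grin1 from -0.081 to 0.015, Grin2a from -0.096 to 0.062, Grin2b from -0.11 to 0.051, Mbp from -0.043 to 0.069, Rarres2 from -0.12 to 0.22, Slc7a10 from -0.022 to 0.18, Tekt1 from -0.11 to 0.12 and the beta-actin ratio from -0.14 to 0.071.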
